A study of Arabidopsis thaliana with 6 samples.

Results

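STZ, WRKY6 and WRKY53 are 3 genes of Arabidopsis thaliana for transcription factors tied to stress responses and leaf senescence. They were followed here through every probe set that the platform annotation gives to one of them alone, which yielded 1 probe set for each gene, 3 of the 13356 genes that the array names in this way. STZ (AT1G27730) was read by probe set 261648_at, WRKY6 (AT1G62300) by 264746_at and WRKY53 (AT4G23810) by 254231_at. Transcript levels had been measured in whole rosettes of the pgm mutant in the Col-0 background, which lacks plastidic phosphoglucomutase and makes almost no starch. All plants carried this mutation, so no wild-type value stands beside these. After 4 hours of treatment, RNA of 3 groups was hybridised to 6 single-colour arrays, with biological replicates A and B in each group: normal CO2 in light, low CO2 in light, and low CO2 in prolonged darkness. The rosettes were 5 to 6 weeks old, and each array stands for a pool of plants, of which the labels give 15 rosettes as ground but another number as harvested, so the size of the pool is uncertain.

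STZ, also called ZAT10, is a zinc finger protein that mostly represses transcription and is induced by salt, cold, drought, high light and oxidative stress. WRKY proteins bind short DNA elements called W-boxes. WRKY6 is induced in senescing and pathogen-challenged leaves and represses the phosphate exporter gene PHO1, while WRKY53 promotes the onset of leaf senescence and responds to hydrogen peroxide. Transcripts of many senescence and stress regulators are known to change with the supply of sugar, whose part in these data was not tested.

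Normal CO2 in light lowered STZ and WRKY6, and neither gene passed the test for light against darkness at low CO2. STZ averaged 17.8 at normal CO2 against 151 at low CO2 in light, and WRKY6 averaged 9.85 against 58.6 in the same groups. WRKY53 averaged 27.2 against 66.8 there, with a change that missed the threshold. Detection calls were not used, so it is not known whether the low readings of STZ and WRKY6 at normal CO2 stood above background, and the sizes of their falls are uncertain. The change from low to normal CO2 in light is called the CO2 step here, and that from darkness to light at low CO2 the light step. The levels are MAS5 intensities on a linear scale. Changes are differences of log2(intensity + 7.3), which understate the change of dim probe sets, with standard errors and p-values from limma, adjusted by the Benjamini-Hochberg method over 22746 probe sets against a threshold of 0.05.

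**Figure D1:**
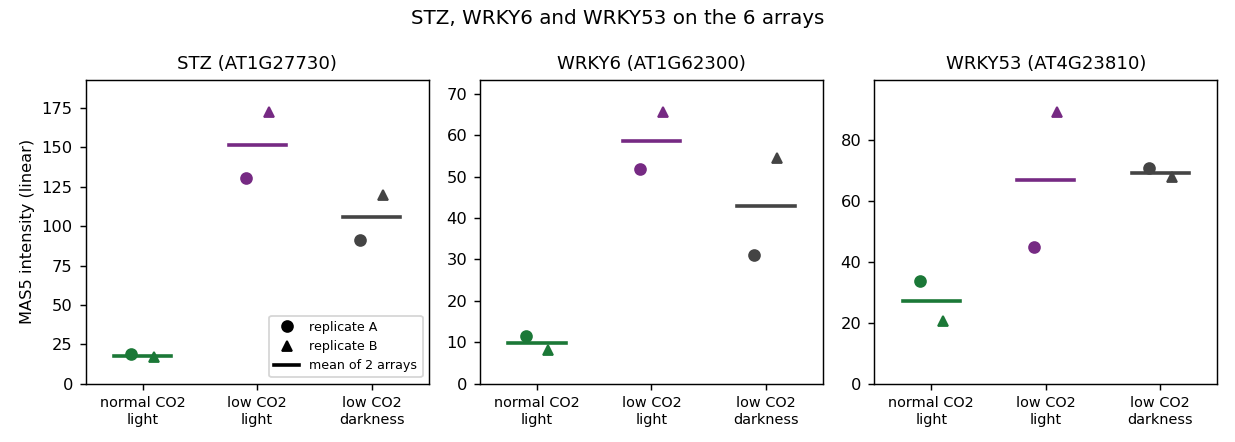
MAS5 intensity (vertical axes, linear, from 0) of STZ, WRKY6 and WRKY53 in the 3 groups, with 1 point per array, circles for replicate A, triangles for replicate B and bars for the mean of 2 arrays. For each gene both arrays of normal CO2 in light lie below both of low CO2 in light, as in 26.6% of all probe sets. The arrays of low CO2 in light lie far apart for WRKY53 (44.7 and 89.0).

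STZ read 18.6 and 16.9 at normal CO2 in light, 130.5 and 172.2 at low CO2 in light, and, at low CO2 in darkness, 91.5 and 119.6 (replicates A and B). Both arrays of normal CO2 were low, the 4 arrays of low CO2 were high, and no 2 groups overlapped. The mean was 17.8 ± 1.20 (SD, n = 2) at normal CO2 in light and 151 ± 29.5 (n = 2) at low CO2 in light. In log2 units STZ fell by 2.65 ± 0.21 (SE) with normal CO2 (95% interval -3.16 to -2.14, limma adjusted p = 0.00485). By size of its fall it ranked 124 among 22746 probe sets. Replicate A alone gave -2.41 and replicate B alone -2.89.

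WRKY6 read 11.5 and 8.2 at normal CO2 in light, 51.7 and 65.5 at low CO2 in light, and, at low CO2 in darkness, 31.1 and 54.5. Normal CO2 was again low on both arrays, while the ranges of the groups at low CO2 overlapped. The mean was 9.85 ± 2.33 (SD, n = 2) at normal CO2 in light against 58.6 ± 9.76 (n = 2) at low CO2 in light. WRKY6 fell by 1.94 ± 0.29 (95% interval -2.64 to -1.24, limma adjusted p = 0.0122). Replicate A alone gave -1.65 and replicate B alone -2.23. Its readings at normal CO2 lay close to the added 7.3, so the size of the fall depends on that constant: it was -2.46 with a constant of 1 and -1.11 with a constant of 32, past the threshold with both.

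WRKY53 read 33.7 and 20.6 at normal CO2 in light, 44.7 and 89.0 at low CO2 in light, and, at low CO2 in darkness, 70.7 and 67.7. The readings at normal CO2 were the lowest of the 6, but the 2 arrays of low CO2 in light differed 1.99-fold. A gap as wide as that one between replicates was rare in this group, exceeded by 4.99% of all probe sets. The means were 27.2 ± 9.26 (SD, n = 2) at normal CO2 in light and 66.8 ± 31.3 (n = 2) at low CO2 in light. The change was -1.07 ± 0.34 (95% interval -1.89 to -0.24, unadjusted p = 0.0188, limma adjusted p = 0.0890). Replicate A alone gave -0.34 and replicate B alone -1.79. The call turned on the setting: the change passed with dim probe sets, those with a mean under 3 times 7.3, left out (adjusted p = 0.0455), and so it did when replicate A of low CO2 in light was removed (-1.51, adjusted p = 0.0360), whereas removing replicate B of that group left -0.62 (adjusted p = 0.309).

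Thus 2 of the 3 genes fell with normal CO2, where 6.20% of all probe sets fell and 8.40% rose. The 3 genes, and the gene lists below, were chosen with earlier results of these data known. Counts set beside the shares of all probe sets, here and below, are therefore no test of these genes as a set. All 3 had both arrays of normal CO2 below both of low CO2 in light, as did 26.6% of all probe sets. The median change over all probe sets was -0.01. The 95% intervals of STZ and WRKY53 did not overlap, but the difference in response between the genes was not tested. The ubiquitin ratio of 3 prime to 5 prime signal, a measure of RNA integrity, stood at 1.69 and 1.95 for normal CO2 in light against 1.38 to 1.49 on the other 4, and its part in these changes was not tested. The actin and GAPDH ratios did not set normal CO2 apart, with 2.16 and 2.60 for actin against 1.97 to 2.84 on the other arrays, and 0.949 and 1.07 for GAPDH against 1.02 to 1.13. The calls rested on both arrays of normal CO2. Without replicate A of that group the adjusted p was 0.0558 for STZ and 0.0667 for WRKY6, with changes of -2.70 and -2.08, and limma then called 0 of all probe sets (5835 at unadjusted p under 0.05). Without its replicate B the values were 0.0846 and 0.109, with changes of -2.60 and -1.80, and 0 calls in all (4779 at unadjusted p under 0.05). WRKY6 also missed the threshold without low CO2 in light B (-1.79, adjusted p = 0.0594).

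Light against darkness, both at low CO2, gave no call for any of the genes. STZ averaged 151 ± 29.5 in light and 106 ± 19.9 in darkness (SD, n = 2 each). Both of its arrays in light were above both in darkness, as in 23.6% of all probe sets, and the change was 0.49 ± 0.21 (95% interval -0.02 to 1.0, limma adjusted p = 0.324). Matched by letter, the steps were 0.48 in A and 0.50 in B, but the letters share only a name in the labels. The change was 0.30 without low CO2 in light B and 0.31 without darkness A. WRKY6 averaged 58.6 ± 9.76 in light and 42.8 ± 16.5 in darkness, and its change was 0.43 ± 0.29 (95% interval -0.28 to 1.13, adjusted p = 0.541). Its darkness arrays of 31.1 and 54.5 enclosed the light reading of 51.7, and its change was 0.085 without darkness A and 0.77 without darkness B. WRKY53 averaged 66.8 ± 31.3 in light and 69.2 ± 2.12 in darkness, a change of -0.11 ± 0.34 (95% interval -0.93 to 0.71, adjusted p = 0.918). Matched by letter, its steps went opposite ways, with -0.59 in A and 0.36 in B, and without low CO2 in light A the sign turned (0.33). Here 0 of the 3 genes passed in limma, where 0.849% of all probe sets rose and 0.193% fell. An unadjusted limma p under 0.05 was held by 0 of the 3, and by 3758 of all 22746 probe sets.

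**Figure D2:**
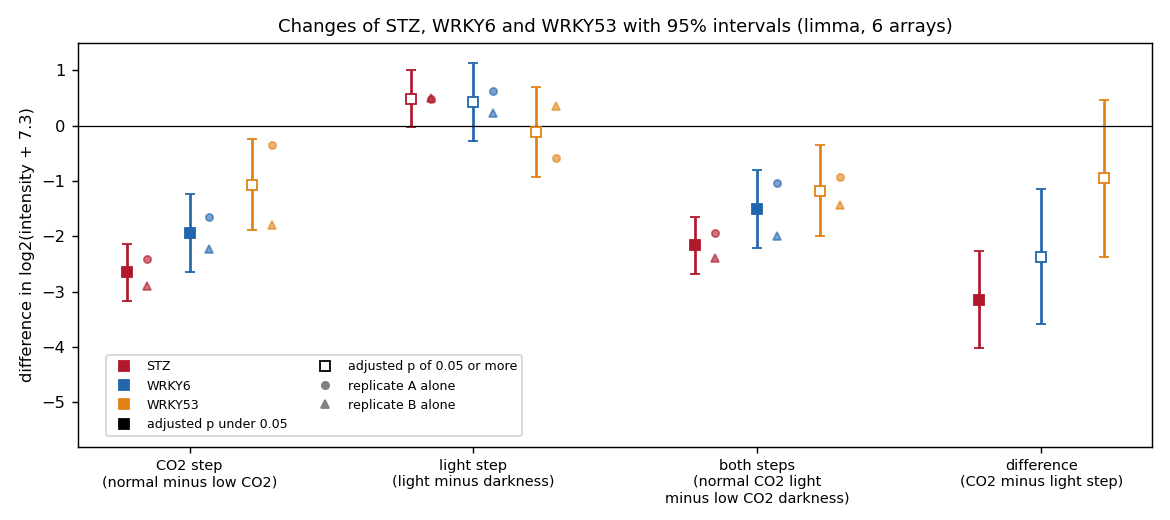
Differences in log2(intensity + 7.3) of STZ, WRKY6 and WRKY53 in 4 comparisons (vertical axis), as squares with 95% intervals from limma over 6 arrays, filled where the adjusted p was under 0.05. Small circles and triangles give replicates A and B alone. STZ and WRKY6 lie below 0 in the CO2 step (-2.65 and -1.94) and above it, unfilled, in the light step (0.49 and 0.43).

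Set against low CO2 in darkness, normal CO2 in light again gave lower levels. This comparison shares its arrays with the other ones and is their sum, called both steps. STZ averaged 17.8 ± 1.20 at normal CO2 in light and 106 ± 19.9 at low CO2 in darkness (SD, n = 2 each), and fell by 2.16 ± 0.21 (limma adjusted p = 0.00322). WRKY6 averaged 9.85 ± 2.33 at normal CO2 in light against 42.8 ± 16.5 in darkness and fell by 1.51 ± 0.29 (adjusted p = 0.0164). WRKY53 averaged 27.2 ± 9.26 at normal CO2 in light against 69.2 ± 2.12 in darkness, and its change of -1.18 ± 0.34 missed the threshold (adjusted p = 0.0565). It lay close to it, and passed after shifting the arrays to a common median (-1.28, adjusted p = 0.0341), with the dim probe sets left out (adjusted p = 0.0270), with a constant of 1 (-1.36, adjusted p = 0.0460) and in a fit of the 4 arrays of these groups (adjusted p = 0.0279). It also passed without either array of low CO2 in light, a group outside this comparison (adjusted p = 0.0259 without A and 0.0281 without B). WRKY6 missed the threshold when either array of normal CO2 was removed (adjusted p = 0.0711 without A and 0.107 without B), and also without the B array of darkness (-1.17, adjusted p = 0.0780). In all, 2 of the 3 genes fell, where 9.13% of all probe sets did.

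Whether a gene moved differently with CO2 than with light was tested as the CO2 change minus the light change. For STZ this difference was -3.14 ± 0.37 (95% interval -4.03 to -2.26, limma adjusted p = 0.0388), 1 of 3 genes to pass, where 1.21% of all probe sets passed in this direction. The call of STZ was lost without any one of the 6 arrays, in fits that leave 1 array in a group. The difference then ran from -3.52 to -2.76. It was also lost with a constant of 32 (-2.29, adjusted p = 0.0501) and without a mean-variance trend (adjusted p = 0.0561). WRKY6 had -2.37 ± 0.50 (adjusted p = 0.0694), which passed with the dim probe sets left out (adjusted p = 0.0353). That filter used the mean over all 6 arrays. WRKY6, which averaged 9.85 at normal CO2 in light, cleared it only through the groups at low CO2. Its pass there is no further support for a difference. WRKY53 had -0.95 ± 0.59 (95% interval -2.37 to 0.47, adjusted p = 0.424), with -1.84 after removal of replicate A of low CO2 in light and -0.064 after removal of its replicate B.

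The order of levels was thus the same for STZ and WRKY6: low CO2 in light, low CO2 in darkness, normal CO2 in light, with the first 2 not told apart by the test. For WRKY53, darkness and light at low CO2 had nearly equal means, and normal CO2 was lowest. Over the 6 arrays the log2 profiles of STZ and WRKY6 had r = 0.987, those of STZ and WRKY53 0.875 and those of WRKY6 and WRKY53 0.861. These are descriptions over arrays that share their treatments and scaling.

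WRKY6 and WRKY53 belong to a family of which the annotation used here named 7 genes, each by 1 probe set, and the counts below cover these 7 alone. With normal CO2 in light against low CO2 in light, 1 of 7 fell, WRKY6 as given above, and 0 rose (median change -0.52), against 6.20% lower and 8.40% higher over all probe sets. WRKY22, a factor of immune signalling that is also known to be induced in darkness, read 20.3 and 15.8 at normal CO2 in light, 30.7 and 75.8 at low CO2 in light, and, at low CO2 in darkness, 90.8 and 115.1. Its levels were lowest at normal CO2 and highest in darkness, and no 2 groups overlapped. Each step by itself missed the threshold, with -1.15 ± 0.38 for CO2 (adjusted p = 0.0961) and -0.96 ± 0.38 for light (adjusted p = 0.278). WRKY22 did fall at normal CO2 in light against low CO2 in darkness, by 2.12 ± 0.38 (limma adjusted p = 0.0132). WRKY47 had the same order at smaller size, with 22.3 and 22.5 at normal CO2 in light, 32.4 and 38.2 at low CO2 in light, and, in darkness, 43.8 and 43.7, and fell by 0.78 ± 0.19 over both steps (adjusted p = 0.0333).

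The other 3 family members gave no call. WRKY20 read 115.2 to 133.1 at normal CO2 in light, 98.7 to 135.7 at low CO2 in light and 103.0 to 125.4 in darkness. ZAP1, also called WRKY1, read 111.4 to 123.7 at normal CO2 in light, 96.6 to 109.6 at low CO2 in light and 97.6 to 106.6 in darkness. WRKY42, which like WRKY6 represses PHO1, read 1.3 to 3.3 on all arrays, below the added 7.3, and a change was not detectable at that level. Over both steps 3 of 7 family members fell, WRKY6, WRKY22 and WRKY47, against 9.13% of all probe sets (median change -0.78, against 0.03 over all probe sets). In the light step 0 of 7 passed in limma (median change -0.11), where 0.849% of all probe sets rose and 0.193% fell. An unadjusted limma p under 0.05 was held by 1 of 7, WRKY22, and by 3758 of all 22746 probe sets.

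**Figure D3:**
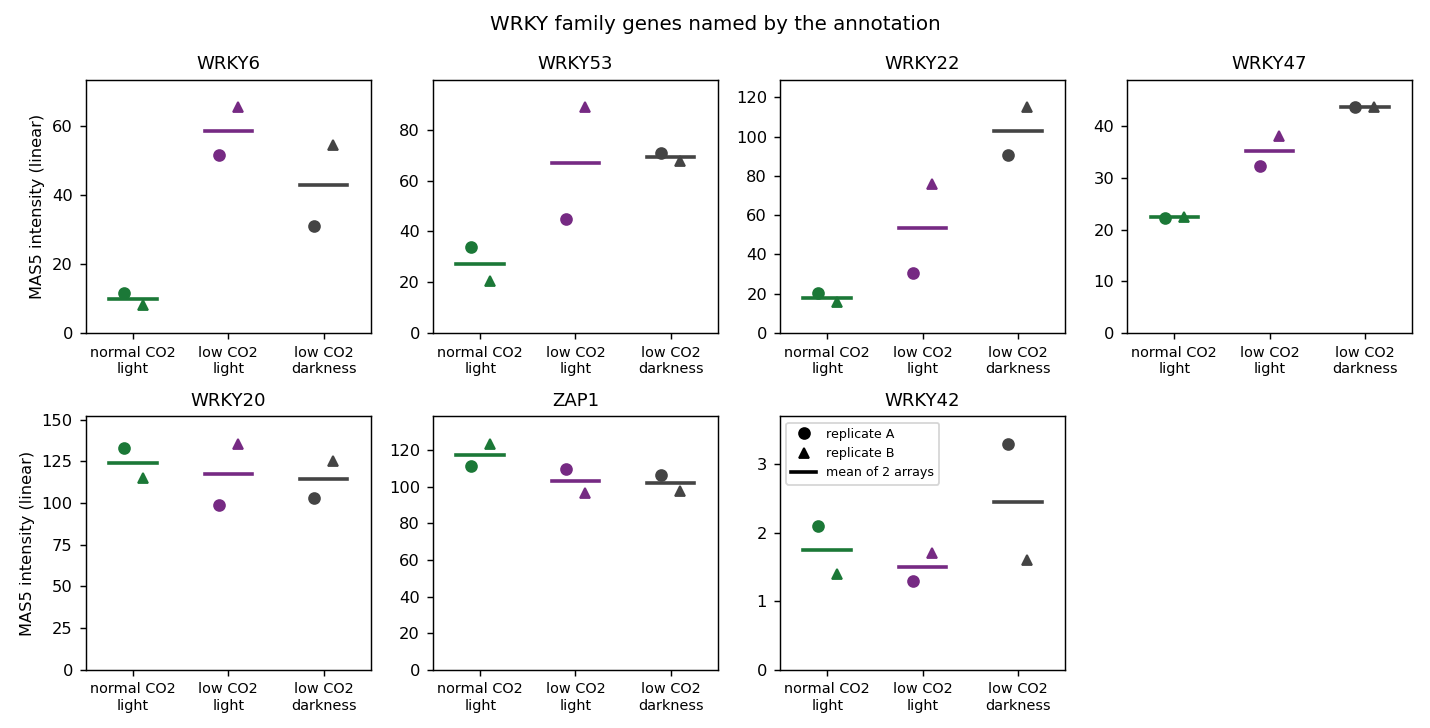
MAS5 intensity (vertical axes, linear, from 0) of the 7 WRKY family genes named by the annotation, in the 3 groups, with circles for replicate A, triangles for replicate B and bars for the mean of 2 arrays. WRKY22 and WRKY47 step up from normal CO2 in light to low CO2 in light to darkness, WRKY20 and ZAP1 stay between 96.6 and 135.7, and WRKY42 reads at most 3.3.

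Few other genes of the stress and senescence pathways could be named, because the annotation used here leaves 8730 probe sets without a symbol and 503 with several. The genes not named were not analysed here. Of 32 genes of oxidative and abiotic stress 4 were named, and with normal CO2 in light against low CO2 in light 1 rose and 1 fell, where 8.40% of all probe sets rose and 6.20% fell. COR47, a dehydrin induced by cold and drought, read 289.4 and 174.5 at normal CO2 in light, 910.4 and 765.5 at low CO2 in light, and, in darkness, 959.5 and 1681.3. It fell by 1.86 ± 0.33 with normal CO2 (limma adjusted p = 0.0188), in the direction of STZ. SAPX, a stromal ascorbate peroxidase, went the other way, with 239.6 and 376.3 at normal CO2 against 114.0 and 105.1 at low CO2 in light, a rise of 1.40 ± 0.22 (adjusted p = 0.0138). TAPX, the thylakoid ascorbate peroxidase, had 0.21 (adjusted p = 0.467). COR15A, a cold-induced chloroplast protein, ranged from 93.9 to 1064.9 within darkness alone and had -0.10 (adjusted p = 0.969).

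Of 26 leaf senescence genes 2 were named and neither passed in the CO2 step, where 8.40% of all probe sets rose and 6.20% fell. A count of 2 genes does not speak for the list. SAG101, a partner of the immune regulator EDS1, read 19.9 and 19.7 at normal CO2 in light, 31.6 and 57.1 at low CO2 in light, and, in darkness, 29.2 and 34.5. Its CO2 change was -0.89 ± 0.28 (adjusted p = 0.0884), and normal CO2 lay below both other groups. SAG29, the sugar exporter SWEET15, read 31.3 and 16.0 at normal CO2 in light, 45.4 and 5.8 at low CO2 in light, and, in darkness, 49.2 and 2.8, so the replicates spanned more than the treatments (0.19 ± 0.94, adjusted p = 0.929).

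The calmodulin-like proteins CML37 and CML38 were the 2 of 11 calcium and touch response genes named. Neither passed in the CO2 step, where 8.40% of all probe sets rose and 6.20% fell. CML38 read 11.6 and 5.4 at normal CO2 in light, 35.0 and 72.1 at low CO2 in light, and, in darkness, 12.7 and 60.0 (CO2 change -1.90 ± 0.61, adjusted p = 0.0908). CML37 stayed at or under 11.8 on all arrays (-0.75, adjusted p = 0.145). The single named gene of 25 for carbon starvation signalling was bZIP53, a factor that activates amino acid metabolism genes under low energy. It read 181.0 and 243.2 at normal CO2 in light, 353.5 and 628.0 at low CO2 in light, and, in darkness, 389.6 and 402.7, and fell by 1.14 ± 0.28 with normal CO2 (limma adjusted p = 0.0455). In the light step 0 genes of these lists passed in limma, where 0.849% of all probe sets rose and 0.193% fell. An unadjusted limma p under 0.05 was held by 0 of them, and by 3758 of all 22746 probe sets. The lists of STZ relatives other than STZ, stress MAP kinases, targets and partners of WRKY6 and WRKY53, and salicylic and jasmonic acid signalling had 0 genes named by a probe set and were not analysed here.

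By the profile over the 6 arrays, the named genes closest to STZ were AT1G76590, AT1G21670, AT3G11690, ATG8E and AT3G26510, with root mean square differences of 0.139, 0.152, 0.224, 0.251 and 0.252 log2 units between centred profiles. Pearson's r with STZ was 0.976 to 0.993. AT1G76590 read 26.4 and 19.9 at normal CO2 in light, 134.7 and 208.3 at low CO2 in light, and, in darkness, 96.0 and 159.7. ATG8E, which encodes a protein of the autophagosome membrane, read 187.6 and 149.3 at normal CO2 in light, 926.7 and 893.3 at low CO2 in light, and, in darkness, 793.1 and 1070.4. Of 5279 other named probe sets with a mean intensity of at least 50, 14 lay within 0.3 log2 units of STZ, a limit set after the values were seen.

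For WRKY6, 43 of 5280 probe sets lay within that limit. The closest were AT5G55970 (0.112), AT3G53960 (0.159), AT5G57785 (0.166), PPDK (0.167) and AT2G36320 (0.197). PPDK, pyruvate orthophosphate dikinase, read 283.5 and 236.5 at normal CO2 in light, 692.4 and 1144.6 at low CO2 in light, and, in darkness, 473.9 and 821.1. WRKY53 had 127 of 5279 within the limit, led by AT2G15695 (0.146), AT1G11380 (0.165), AT5G43830 (0.177), GME (0.178) and AT5G58120 (0.181). GME, an epimerase of ascorbate synthesis, read 660.5 and 625.1 at normal CO2 in light, 980.7 and 1541.5 at low CO2 in light, and, in darkness, 1588.0 and 1497.5. These genes were chosen for their likeness over the same 6 arrays, so their changes are no further evidence on the treatments. The limit is a fixed distance, so the counts within it also depend on the size of each gene's own change. In the CO2 step that was -2.65 for STZ, -1.94 for WRKY6 and -1.07 for WRKY53, and the counts do not compare the genes.

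**Figure D4:**
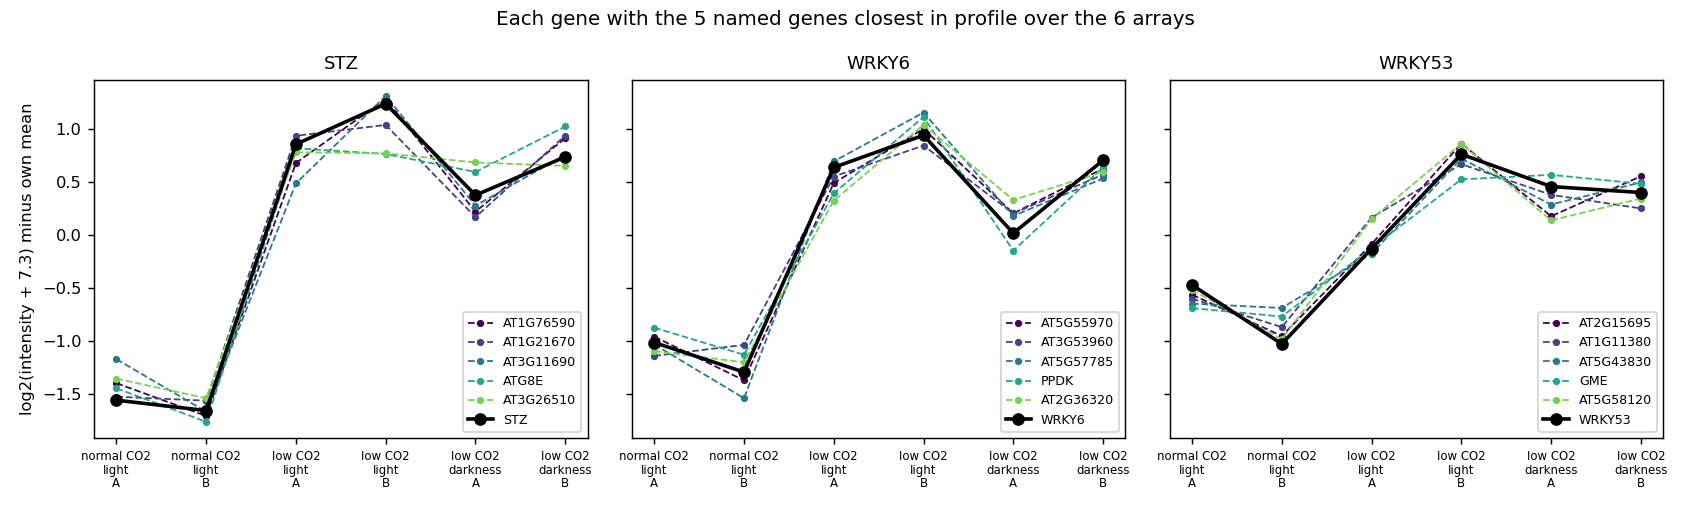
Profiles of STZ, WRKY6 and WRKY53 (black) with the 5 named genes closest to each (dashed), over the 6 arrays (horizontal axis), as log2(intensity + 7.3) minus each gene's own mean (vertical axis). The profiles of STZ and WRKY6 drop on both arrays of normal CO2 in light, and the dashed lines follow each gene by choice.

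Facts of the arrays that touch these values are few. The 2% trimmed mean intensity was 100.01 on each array, and medians ran from 34.55 to 39.55. Replicates correlated with r = 0.971 to 0.984 on the log2 scale. A spike-in control, bioC, gave 66.3 to 73.8 for the A arrays against 116.2 to 157.3 for the B arrays, so the letter goes with a technical difference, and each letter holds all groups. In low CO2 in light, replicate B was above A for all 3 genes, as for 54.2% of all probe sets. Of 12 leaf photosynthesis genes 6 were named, all bright, from the light-harvesting gene LHCB4.1 at 3894.9 to 4708.7 down to LHCB4.3 at 352.2 to 1085.5. They were not all steady. LHCB4.3 had 1.28 in the light step (limma adjusted p = 0.0517) and 0.84 over both steps (adjusted p = 0.0336). SBPASE had 0.40 in the light step (adjusted p = 0.270). Of markers of flower, root and xylem, 1 of 14 was named, PYK10, a root-abundant glucosidase that read 295.7 to 542.6, and its CO2 change was -0.11 (adjusted p = 0.804). In whole rosettes, fewer cells that express a gene and less transcript per cell cannot be told apart.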

How the data were processed

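The authors deposited 1 linear intensity for each probe set on each array, computed with MAS5 per the submitters' processing notes from biotin-labelled RNA. Its version and scaling target are not stated in these sources. Of 22810 probe sets, 64 controls were left out. Gene names came from the platform annotation (13513 probe sets with 1 symbol, 503 with several, 8730 with none), and 13436 matched the TAIR10.1 gene table by Entrez ID without any change of symbol. Probe sets with several symbols were not used for naming.

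Intensities were transformed as log2(intensity + 7.3), the constant being the 20th percentile of tested values. limma 3.58.1 in R 4.3.3 fitted 3 group means to all 6 arrays, without added normalization (eBayes with trend, 3 residual and 3.27 prior degrees of freedom). The fit was also run on simulated data with independent noise and changes placed in normal CO2 in light alone. The outcome of that run is not given here and is no support for the calls. The CO2 step is normal minus low CO2 in light, the light step is light minus darkness at low CO2. The number of arrays limits the precision. Alternatives were quantile or common-median scaling, constants of 1 and 32, leaving out dim probe sets (mean under 3 times the constant), no trend, only the groups compared, the letter as a block, and each array left out. The genes named were all 3 members, up to 4 members per list past the threshold in the CO2 step (3 in the light step) or the 2 with the smallest p, all 7 WRKY genes, and the 5 closest profiles. Members and lists were chosen with earlier results of these data known. List genes beyond this rule (TAPX, COR15A) were named because each list held at most 4.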

Additional observations from a re-analysis of the deposited data

How the results depend on the processing

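Under all 14 alternatives the changes of STZ and WRKY6 kept their direction in the CO2 step, in the light step and over both steps, and in the difference between steps they did so under all 13. Not all of these could alter a direction. Dropping dim probe sets, the trend, a group or array outside the comparison, or adding the block, leaves the size of a change as it was. Those alternatives bear on the adjusted p alone. STZ ranged from -3.01 to -1.87 in the CO2 step and passed in 12 of 14; over both steps it passed in 14 of 14. WRKY6 ranged from -2.46 to -1.11 in the CO2 step and passed in 11 of 14, and in 11 of 14 over both steps. WRKY53 passed in 2 of 14 in the CO2 step and in 6 of 14 over both steps.

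With each array left out, the CO2 step gave -2.84 to -2.46 for STZ, -2.09 to -1.79 for WRKY6 and -1.51 to -0.62 for WRKY53. Over both steps WRKY6 gave -1.86 to -1.17 and WRKY53 -1.45 to -0.90. The light step gave 0.30 to 0.68 for STZ, 0.085 to 0.77 for WRKY6 and -0.56 to 0.33 for WRKY53, and the difference between steps gave -3.52 to -2.76 for STZ, -2.71 to -2.03 for WRKY6 and -1.84 to -0.064 for WRKY53. Without a trend STZ kept its difference of -3.14 but not the call, and with a constant of 32 it had -2.29. With dim probe sets left out, WRKY53 passed at its unchanged -1.07 and -1.18, and WRKY6 at its difference of -2.37, in a table with fewer probe sets tested and a refitted variance prior. STZ and WRKY6 stayed in that table only through their levels at low CO2, with means of 17.8 and 9.85 at normal CO2 in light. WRKY53 over both steps passed with a common median at -1.28, with a constant of 1 at -1.36 and in a fit of the groups compared at -1.18.

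Counts over all probe sets moved more. In the light step 237 passed: 368 with a constant of 1, 145 with 32, 637 without dim probe sets, 105 without a trend, 0 with only the groups compared (3445 at unadjusted p under 0.05 in limma) and 0 to 99 with an array left out (at 0, 3435 and 3442 had an unadjusted p under 0.05). In the difference between steps 428 passed: 649, 109, 1270 and 6 under the first 4 of these, and 0 to 38 with an array left out (at 0, 3558 to 4414 at unadjusted p under 0.05). The CO2 step had 3321, and 0 to 2744 with an array left out, and both steps had 4655, and 576 to 4695. With a common median the CO2 step split into 1574 higher and 1742 lower, against 1911 and 1410 as deposited.

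With the replicate letter as a replicate block, 475 passed in the light step and 823 in the difference, and no call of the 3 genes changed (STZ -2.65, adjusted p = 0.00510). The labels give the letters no meaning beyond a name, but the bioC control differed between them, as given above. Deviations of same-letter arrays from their group means correlated at 0.015 and 0.159 between normal CO2 in light and the groups at low CO2 in light and in darkness. Between the 2 groups at low CO2 the value was 0.307. The causes of these shifts were not tested.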
